A study of Mus musculus with 4 samples.

Results

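The genes examined here are 10 core pluripotency and stem cell identity genes, *Pou5f1*, *Sox2*, *Sall4*, *Lin28a*, *Lin28b*, *Trim71*, *L1td1*, *Utf1*, *Dppa2* and *Dppa4*. They were found by an exact match of their symbols among the 53379 genes of the deposited tables, and all 10 were present. Bulk RNA of DKO741 cells was sequenced at population doubling 100 (PD100, pre-ALT) and at population doubling 800 (PD800, post-ALT), with 2 libraries per group. DKO741 is a mouse embryonic stem cell (mESC) line of genotype *Terc*-/- that was derived from E14 cells. ALT, the alternative lengthening of telomeres, is telomere maintenance without telomerase. Both groups carry the *Terc* deletion, so that the comparison is between an early and a late population of a single line, and lines that keep telomerase were not analysed here. Stocks of the line were grown with fibroblast feeder cells from mouse embryos, which were left out of the cultures used in experiments. The comparison asks whether the stem cell identity programme had the same RNA levels in cells that survive through ALT as in the pre-ALT cells.

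In pluripotent cells the transcription factors OCT4 (encoded by *Pou5f1*) and SOX2 bind DNA together and activate the genes that keep the cells undifferentiated. LIN28A and LIN28B are RNA-binding proteins that block the maturation of the let-7 microRNA family, and let-7 in turn represses the *Lin28* and *Trim71* mRNAs, which makes a loop of mutual repression. UTF1, DPPA2 and DPPA4 are chromatin proteins of early embryonic and germ cells.

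The targeted gene was examined first. *Terc*, which lies on chromosome 3 of GRCm38 (chr3:96414437-96414859), was listed with 1 expected count in PD100 replicate 1 and with 0 in the remaining 3 libraries. No library with intact *Terc* was analysed here to show what count it would give, so these counts do not test the genotype in the labels. Expected counts, the read numbers that RSEM assigns to each gene, summed to 38492149 and 32454121 in PD100 replicates 1 and 2 and to 37460820 and 33362106 in PD800 replicates 1 and 2. Across genes, the correlation of log2 CPM (counts scaled to library totals with edgeR's TMM factors) was 0.984 between the PD100 libraries, 0.992 between the PD800 libraries and 0.935 to 0.944 across the groups. The PD100 libraries differed from each other more than the PD800 libraries did, with a chi-square per degree of freedom of 66.3 against 10.2. Mitochondrial genes took 15.4% and 11.0% of the counts in PD100 and 17.7% and 16.0% in PD800.

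All 10 genes were expressed in every library and all 10 entered the test. *Lin28b* was the single gene that changed more than 2-fold: it fell, by 2.64-fold. *Utf1* rose by 1.29-fold, close to the threshold of the test. The remaining 8 genes did not pass an adjusted p of 0.01, and 9 of the 10 lay within 1 log2 unit of no change, as did 78.8% of all tested genes. The calls were made with edgeR, by its quasi-likelihood test and a Benjamini-Hochberg adjustment over 19148 tested genes. With adjusted p below 0.01 and a change of over 2-fold, 1 of the 10 genes was lower in PD800, where 8.81% of all tested genes were, and 0 were higher, where 6.28% of all tested genes were. The count of 0 was also 0 in edgeR at an unadjusted p under 0.05 with the same fold change, and 0 in DESeq2. With adjusted p below 0.01 and a change of any size, 1 of the 10 was higher and 1 was lower, where 13.1% and 15.4% of all tested genes were. At an unadjusted p under 0.05 these counts were 4 and 2, where 26.4% and 27.0% of all tested genes were. In counts simulated for PD800 against PD100 with the common dispersion, over 18749 genes, the adjusted p was passed by 9 of 66 genes changed 1.5-fold. It was passed by 43 of 66 changed 2-fold and 63 of 65 changed 4-fold. Far fewer genes were changed there than were called in the data, which makes the adjusted p harder to pass in the simulation. The common dispersion also served genes of every level. The shares thus do not give the recovery for the 10 genes, although a change under 2-fold can be missed. The median log2 fold change, PD800 over PD100, was -0.02 over the 10 genes and 0.01 over all tested genes, and the median of its absolute size was 0.35 and 0.45. The 2 groups did not overlap in CPM for 7 of the 10 genes, where 73.8% of all tested genes did not overlap. In bulk RNA, a smaller share of cells that express a gene and less of its RNA per cell cannot be told apart. The libraries of a group are described as biological duplicates, but whether they came from separate cultures is not given in the sources used here, so the p-values measure the spread between these libraries. With 2 libraries against 2, an exact permutation test cannot give a p under 0.333.

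*Pou5f1* (chr17:35506018-35510772, plus strand) was the most abundant of the 10 genes per length in every library. It had 18841 and 16800 expected counts in PD100 against 21619 and 20390 in PD800, or 467 and 503 CPM against 601 and 635 CPM. Both PD800 libraries were above both PD100 libraries. The log2 fold change was 0.35 (SE 0.09, 95% interval 0.14 to 0.56), and the adjusted p of 0.0194 in edgeR missed the threshold. It passed under 6 of 13 alternative settings, DESeq2 among them (adjusted p = 0.00265), and over all 13 the adjusted p ranged from 0.000522 to 0.401. TPM are RSEM's values per transcript length, with an equal sum in every library, and on log2(TPM + 1) and log2(TPM + 0.1), tested by the linear models of limma, the difference was 0.11, below the interval.

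*Sox2* (chr3:34650405-34652461, plus strand) encodes the DNA-binding partner of OCT4. It had 153 and 118 CPM in PD100 and 212 and 208 CPM in PD800, from expected counts of 6188, 3932, 7611 and 6691. The PD100 libraries differed from each other far more than the PD800 libraries, and both lay below them. The log2 fold change of 0.63 (SE 0.13, 95% interval 0.31 to 0.95) had an adjusted p of 0.0102 in edgeR, just outside the threshold. It passed under 7 of the 13 alternatives, DESeq2 among them, and its adjusted p ranged from 1.32e-09 to 0.164 over them. Without PD100 replicate 1 the log2 fold change was 0.84, and without PD100 replicate 2 it was 0.43. *Sox2* lies within *Sox2ot*, a non-coding gene on the same strand (chr3:34104270-34682619), which had 66 and 36 expected counts in PD100 and 120 and 110 in PD800. *Sox2ot* rose with a log2 fold change of 1.304 (SE 0.24, edgeR adjusted p = 0.00716), and how reads of the shared stretch were divided between the genes was not tested.

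*Sall4* (chr2:168748332-168767943, minus strand), a zinc finger factor that works with OCT4 and SOX2, had 240 and 230 CPM in PD100 and 237 and 226 CPM in PD800. The groups overlapped. Its log2 fold change was -0.02 (SE 0.08, 95% interval -0.21 to 0.17, edgeR adjusted p = 0.840), so that a change of more than 0.21 log2 units in either direction lay outside the interval on the CPM scale. In the limma fits on TPM values it was -0.287 and -0.293, beyond that limit (adjusted p = 0.0666 and 0.0681).

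Of the RNA regulators, *Lin28b* (chr10:45376620-45486395, minus strand) fell. It had 2048 and 1685 expected counts in PD100 against 662 and 640 in PD800. In CPM these were 50.7 and 50.5 against 18.4 and 19.9, so that replicates lay close together and the groups were far apart. The log2 fold change was -1.40 (SE 0.08, 95% interval -1.60 to -1.20), with an adjusted p of 0.000114 in edgeR. The fall passed the adjusted p and the 2-fold threshold under all 13 alternative settings, with log2 fold changes from -1.64 to -1.34 and adjusted p-values from 6.62e-37 to 0.00236.

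*Lin28a* (chr4:134003330-134018841, minus strand), the paralog that also blocks let-7 maturation, had 189 and 203 CPM in PD100 and 150 and 158 CPM in PD800. Both PD800 libraries were below both PD100 libraries. The log2 fold change of -0.35 (SE 0.08, 95% interval -0.54 to -0.16) missed the threshold in edgeR, with an adjusted p of 0.0143, and it passed under 7 of the 13 alternatives, DESeq2 among them (adjusted p = 0.00224, with a range of 0.000587 to 0.223 over the alternatives). In the limma fits on TPM values the log2 fold change of *Lin28a* was -0.604 and -0.619, below that interval (adjusted p = 0.00662 and 0.00670). The edgeR intervals of *Lin28a* and *Lin28b* did not overlap, but the difference between their fold changes was not tested. Per length, in TPM, *Lin28a* stood at 45.0 and 47.0 in PD100 and at 29.7 and 30.2 in PD800. *Lin28b* stood at 8.42 and 7.80 TPM in PD100 and at 2.52 and 2.55 TPM in PD800, so that *Lin28a* was the more abundant paralog in every library.

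*Trim71* (chr9:114507133-114564369, minus strand), an RNA-binding ubiquitin ligase that silences mRNAs, had 458 and 475 CPM in PD100 and 435 and 450 CPM in PD800. The groups were separate by a small margin, and the log2 fold change was -0.08 (SE 0.08, 95% interval -0.27 to 0.12, edgeR adjusted p = 0.473). *L1td1* (chr4:98726734-98738480, plus strand), an RNA-binding protein gene derived from a LINE-1 element, had 216 and 280 CPM in PD100 and 229 and 257 CPM in PD800. The PD800 libraries lay between the PD100 libraries, and the log2 fold change was -0.03 (SE 0.14, 95% interval -0.37 to 0.31, edgeR adjusted p = 0.870). RSEM's estimated mean transcript length of *L1td1* was 2490 and 2494 bases in PD100 and 2438 and 2447 bases in PD800, a separation that was not tested and that can follow from a different mix of isoforms or from how reads were assigned.

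**Figure D1:**
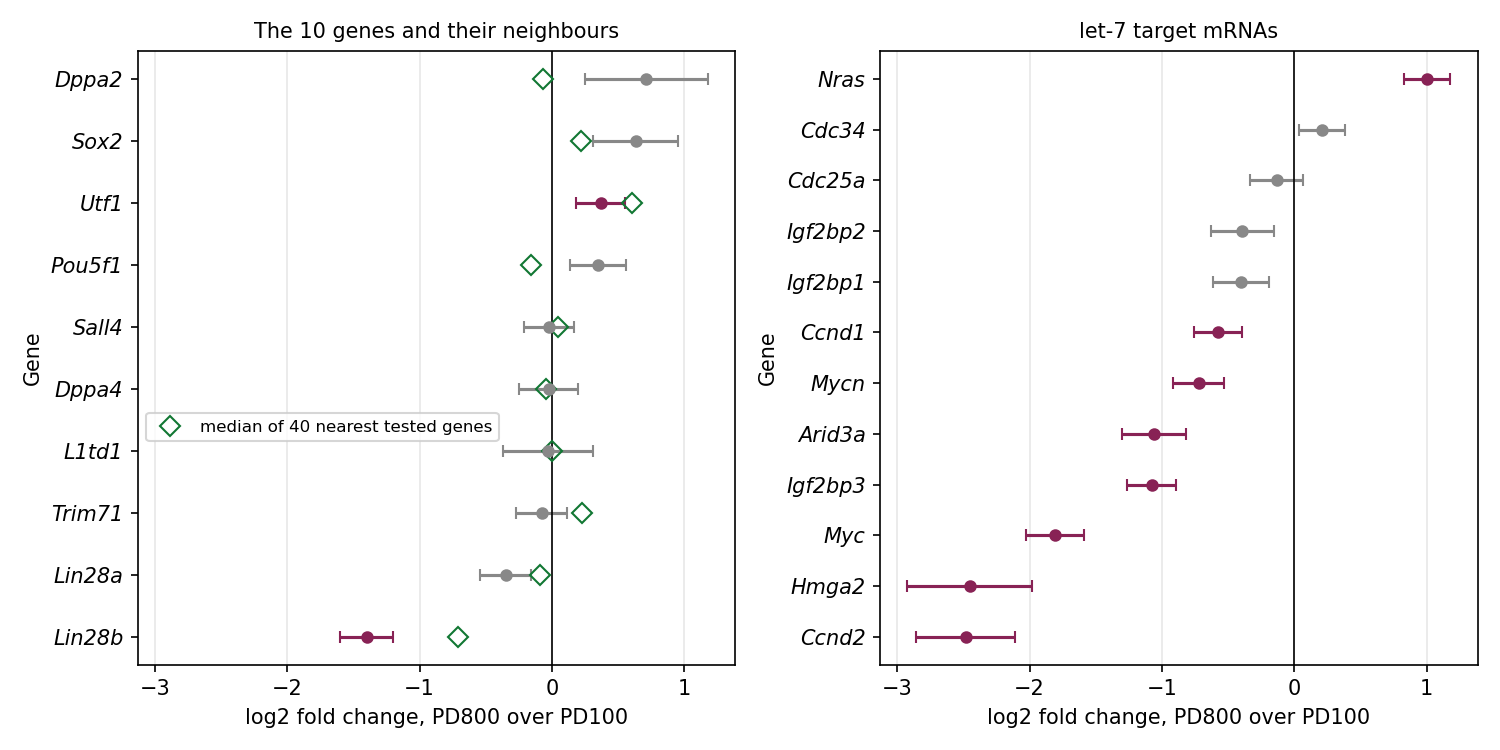
Log2 fold changes, PD800 over PD100, with 95% intervals for the 10 genes (left) and for 12 let-7 target mRNAs (right), from 2 libraries per group. Purple points passed an adjusted p of 0.01 in edgeR, grey points did not, and open diamonds give the median of the 40 nearest tested genes. *Lin28b* at -1.40 stands apart from the other 9 genes, and its neighbours have a median of -0.71.

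Because LIN28 proteins act on let-7, let-7 sequences and their matches in the 10 genes were examined. RefSeq (GRCm38) lists 8 mature let-7 5p sequences from 10 genes, which share 1 seed. A pair of them is shown with the seed, bases 2 to 8, in capitals.
let-7a-5p (chr13:48538239-48538260, minus strand): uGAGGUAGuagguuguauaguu
let-7g-5p (chr9:106178846-106178867, plus strand): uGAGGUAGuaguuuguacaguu
The deposited tables list 11 let-7 precursor genes, all at 0 expected counts in all 4 libraries, and mature let-7 was not analysed here.

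The letters CTACCTC, which pair with that seed, were sought on the sense strand in the longest annotated 3′ UTR of each protein-coding gene of GENCODE M21. Of 14535 tested genes with a 3′ UTR, 10.5% held the letters at least at 1 position, and 1.29% at 2 or more. Of the 10 genes, 4 held them: *Lin28b* and *Trim71* at 4 positions each, *Lin28a* at 2 and *Sall4* at 1. Longer 3′ UTRs hold more matches by length alone, and those of *Lin28b* and *Trim71*, at 4445 and 5512 bases, were longer than the median of 1141 bases. The matches in the *Lin28* paralogs and those nearest to the stop codon of *Trim71* follow in 20-base stretches, with the match in capitals.
Lin28a match 1 (chr4:134005185-134005204, minus strand): ctgttgaaCTACCTCatttt
Lin28a match 2 (chr4:134004547-134004566, minus strand): ccacaaacCTACCTCactgt
Lin28b match 1 (chr10:45381018-45381037, minus strand): cgggaagtCTACCTCatgca
Lin28b match 2 (chr10:45378644-45378663, minus strand): gttagtaaCTACCTCtgagt
Lin28b match 3 (chr10:45378472-45378491, minus strand): gcacatggCTACCTCccagc
Lin28b match 4 (chr10:45377056-45377075, minus strand): ggcaccgaCTACCTCttcaa
Trim71 match 1 (chr9:114512468-114512487, minus strand): cctaagtcCTACCTCagctt
Trim71 match 2 (chr9:114512372-114512391, minus strand): atttctatCTACCTCaactc
An adenine follows the match, which let-7 sites often have, at both positions of *Lin28a*, at all 4 of *Trim71* and at 1 of 4 of *Lin28b*. The log2 fold changes of *Lin28b* and *Trim71*, with 4 matches each, were -1.40 and -0.08, and whether let-7 bears on either was not tested. The 14535 tested genes with a 3′ UTR had a median log2 fold change of -0.03, and 19.1% were lower at an adjusted p under 0.01. The median was -0.02 for 13008 genes without a match, -0.07 for 1339 with 1 and -0.11 for 188 with 2 or more. The shares that were lower were 18.9%, 22.2% and 17.6%. Of the 188 genes, 11 held 4 or more matches, as *Lin28b* and *Trim71* do, with a median of -0.12 and 27.3% lower. A match of letters is a description and does not show that let-7 binds.

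Of 12 known let-7 target mRNAs, all of which were tested, 7 fell, 1 rose and 4 did not pass, with a median log2 fold change of -0.65. Over all tested genes, 15.4% fell and 13.1% rose at an adjusted p under 0.01. *Hmga2*, an architectural chromatin protein gene, had 1577 and 899 expected counts in PD100 against 217 and 194 in PD800, or -2.45 as log2 fold change (SE 0.19, edgeR adjusted p = 0.000298). It lies on chromosome 10, as *Lin28b* does, where 27.3% of tested genes were lower, and the part of the chromosome in its fall was not tested. *Ccnd2*, which encodes cyclin D2, had 1164, 1191, 227 and 167 expected counts in PD100 replicates 1 and 2 and PD800 replicates 1 and 2, with a log2 fold change of -2.48. *Myc* (-1.81), *Mycn* (-0.72) and *Ccnd1* (-0.58) also fell. *Nras* (1.00) rose, although in limma on log2 TPM values 0 of the 12 were higher. Of the 12 targets, 8 held the letters CTACCTC, while *Ccnd2*, *Myc*, *Mycn* and *Ccnd1* did not. Against 13.1% of all tested genes, *Dicer1* (0.92) and *Dgcr8* (0.38) of 7 tested genes of let-7 processing and decay rose in edgeR, and 5 did not pass. The number that rose was 0 in both limma fits on TPM values and 1 with either PD800 library left out. *Zcchc11* and *Zcchc6*, the uridylyl transferases that act with LIN28A on let-7 precursors, stood at -0.04 (SE 0.08) and -0.23 (SE 0.08).

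Of 4 mRNAs known to be repressed by TRIM71, *Cdkn1a* fell from 992 and 885 expected counts to 342 and 293 (log2 fold change -1.45) and *Egr1* from 747 and 402 to 100 and 62 (-2.69). Over all tested genes, 15.4% fell at an adjusted p under 0.01. *Mbnl1* (0.18) and *Ago2* (0.24) did not pass, although without PD100 replicate 1 both were higher, and *Mbnl1* turned in sign without PD100 replicate 2 and *Ago2* on the TPM scale. Their regulator *Trim71* itself had a log2 fold change of -0.08, as given above, and of -0.31 and -0.32 in the limma fits on TPM values (adjusted p = 0.0434 and 0.0447).

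Among the chromatin genes, *Utf1* (chr7:139943789-139945112, plus strand) had 53.5 and 50.2 CPM in PD100 and 66.4 and 67.6 CPM in PD800, from expected counts of 2158, 1677, 2386 and 2171. Both PD800 libraries were above both PD100 libraries. The log2 fold change was 0.37 (SE 0.08, 95% interval 0.18 to 0.55), with an adjusted p of 0.00979 in edgeR. This call was lost under 5 of 13 alternatives: with DESeq2's size factors in edgeR (adjusted p = 0.0121), in limma on TPM values with either pseudocount (0.415 and 0.417) and without PD800 replicate 1 (0.117) or PD800 replicate 2 (0.135). Its log2 fold change was 0.36 to 0.39 in the first and the last 2 of these and 0.13 in both limma fits, and it was positive in all 13.

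*Dppa2* (chr16:48303908-48319723, plus strand) and *Dppa4* (chr16:48283733-48294237, plus strand) are adjacent genes whose proteins form a pair. *Dppa2* had 63.6 and 41.9 CPM in PD100 and 90.03 and 83.07 CPM in PD800. The groups were separate, but the PD100 libraries were far from each other, and the log2 fold change of 0.71 (SE 0.19, 95% interval 0.25 to 1.18) had an adjusted p of 0.0253 in edgeR. It passed under 5 of the 13 alternatives, namely DESeq2 (adjusted p = 0.000751), no filter on low counts (2.39e-11), the replicate block (0.000226) and each PD100 library left out. Without PD100 replicate 1 the log2 fold change was 1.05 and past both thresholds, and without PD100 replicate 2 it was 0.42, with adjusted p-values of 1.18e-07 and 0.000534 in fits where the lone PD100 library is assumed to vary as the PD800 libraries do. *Dppa4* had 102 and 116 CPM in PD100 and 105 and 109 CPM in PD800, with the PD800 libraries inside the PD100 range, and its log2 fold change was -0.03 (SE 0.09, 95% interval -0.25 to 0.20, edgeR adjusted p = 0.842). The intervals of the adjacent genes did not overlap, and the difference between them was not tested.

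Both genes have near-identical processed pseudogenes, between which RSEM divides reads. The transcript of *Gm9788* matched *Dppa2* at 99.3% identity over 906 bases and had 44.6, 41.2, 70.1 and 61.0 expected counts in PD100 replicates 1 and 2 and PD800 replicates 1 and 2. *Gm14058* matched *Dppa4* at 98.9% identity over 735 bases and had 89.0, 135, 120 and 135 expected counts. *Dppa2* was given 2568, 1399, 3236 and 2669 expected counts and *Dppa4* 4100, 3879, 3782 and 3495, and how well the reads were divided was not tested. Genes on the opposite strand overlap *Pou5f1* (*Gm19553*), *Sall4* (*Gm14261*), *Lin28a* (*Gm13061*) and *Trim71* (*C130032M10Rik*), and the strand of the reads was not analysed here. RSEM gave these genes at most 69.6 expected counts in any library, and how many reads went to the wrong gene was not tested. The estimated transcript length of *Dppa4* was 1527 and 1528 bases in PD100 and 1495 and 1489 bases in PD800.

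DPPA2 and DPPA4 are known to activate genes of the 2-cell stage embryo. Of 13 such genes found in the tables, 9 entered the test and all 9 were lower in PD800. All 9 passed the count filter through the PD100 libraries alone, so this count is a description, and the *Zscan4* and *Usp17l* genes are families of near-identical copies whose separate counts are uncertain. *Zscan4f* had 224 and 140 expected counts in PD100 and 1.57 and 0 in PD800, *Zscan4a* had 98.5 and 62.6 against 2.15 and 3, and *Zscan4d* had 70.2 and 56.9 against 0 and 4. *Usp17lb* had 16.4 and 24.6 expected counts in PD100 and 0 in both PD800 libraries, and was at least 6.48-fold lower against a floor of 3 counts in each library, and *Usp17lc*, with 23.7 and 12.0 against 0 and 0, was at least 5.40-fold lower. The median log2 fold change of the 9 genes was -6.20 as fitted and -3.91 with genes of at most 3 counts per PD800 library set to that floor. With at least 10 counts required in every library, 0 of them could be tested, and in limma on log2(TPM + 1) 5 were lower. In the same libraries *Dppa2* was not lower and *Dppa4* differed little, with the values given above. DPPA2 and DPPA4 protein was not analysed here, and the part of these regulators in the 2-cell genes was not tested.

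TPM values allow levels to be compared between genes. In PD100 the order of mean TPM was *Pou5f1* (301), *L1td1* (78.2), *Dppa4* (58.7), *Sox2* (53.2), *Sall4* (47.3), *Lin28a* (46.0), *Trim71* (37.6), *Utf1* (36.0), *Dppa2* (22.1) and *Lin28b* (8.11). The wide range of *Sox2* overlapped those of *Dppa4*, *Sall4* and *Lin28a*, and the ranges of *Sall4* and *Lin28a* overlapped, as did those of *Trim71* and *Utf1*, so that the order within these pairs is open, while *Dppa4* lay above *Sall4* and *Lin28a* in both libraries. In PD800 the order of mean TPM was *Pou5f1* (325), *Sox2* (69.4), *L1td1* (66.5), *Dppa4* (50.3), *Utf1* (39.3), *Sall4* (38.7), *Dppa2* (30.4), *Trim71* (30.2), *Lin28a* (29.9) and *Lin28b* (2.54). Here *Sox2* and *L1td1* overlapped, as did *Utf1* and *Sall4*, and *Dppa2*, *Trim71* and *Lin28a*. *Pou5f1* was first and *Lin28b* last in both groups. Summed over the 10 genes, the level was 706 and 670 TPM in PD100 and 689 and 676 TPM in PD800, with the PD800 libraries inside the PD100 range. In CPM, the scale of the tests, the sums were 1992 and 2068 in PD100 and 2144 and 2213 in PD800, so that both PD800 libraries were above both PD100 libraries.

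**Figure D2:**
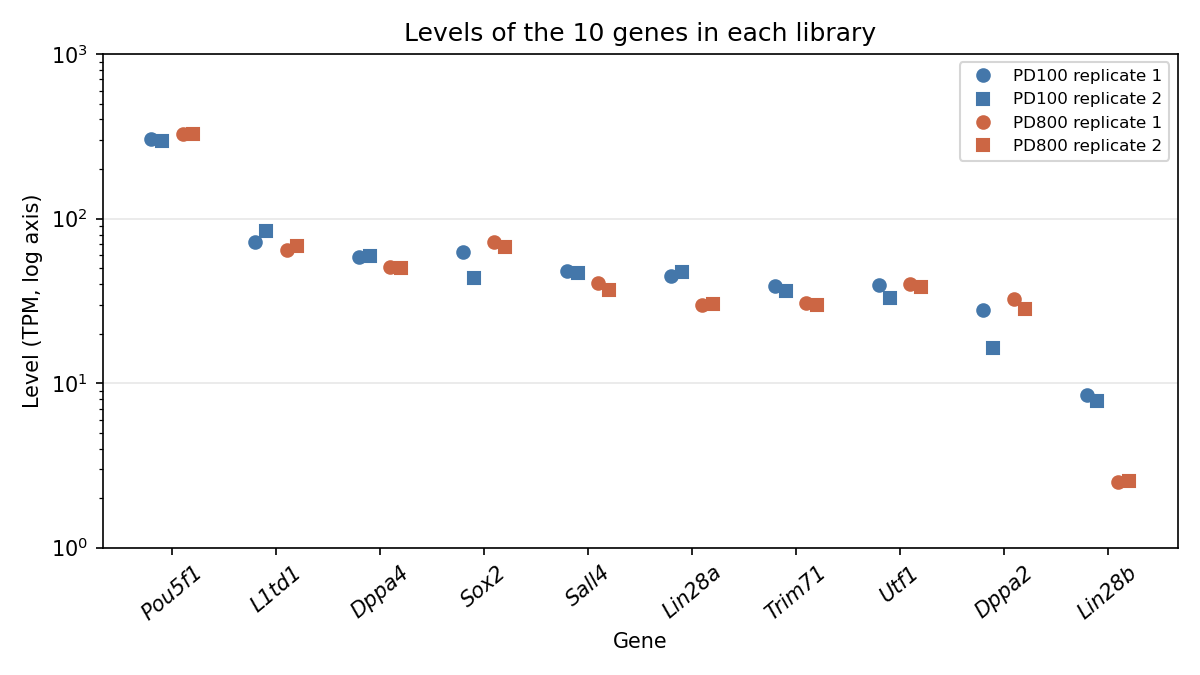
Level of each of the 10 genes in TPM (log axis) in the 2 PD100 libraries (blue) and the 2 PD800 libraries (orange), with 1 point per library and genes ordered by their PD100 mean. *Pou5f1* lies between 296 and 325 TPM in all 4 libraries, and *Lin28b* is at 7.80 to 8.42 TPM in PD100 and 2.52 to 2.55 TPM in PD800.

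The scale bears on the genes with small differences. TPM is divided by all RNA of a library, mitochondrial transcripts included, and over all tested genes the median change was -0.12 on log2(TPM + 1), where edgeR gave 0.01. *Sall4* had 48.2 and 46.5 TPM in PD100 and 40.6 and 36.7 TPM in PD800, and *Dppa4* had 58.1 and 59.3 against 50.8 and 49.8. *L1td1* had 72.2 and 84.2 TPM against 64.7 and 68.3 TPM. All 3 genes whose groups overlapped in CPM were thus separate, and lower in PD800, in TPM. *Utf1*, at 39.2 and 32.8 TPM against 40.1 and 38.6 TPM, was separate in CPM and overlapped in TPM. On log2(TPM + 1) the median of the 10 genes was -0.22.

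The position of the genes was compared with the changes around them, since a change of a whole region also moves its genes. The 40 nearest tested genes of *Lin28b*, which reach up to 5.02 Mb from it, had a median log2 fold change of -0.71, and 19 of them fell while 1 rose. Chromosome 10 as a whole had a median of -0.22 over 904 tested genes, 27.3% of which were lower at an adjusted p under 0.01. The difference of *Lin28b* from the median of its neighbours was -0.69. The adjacent tested genes were *Prep* (-0.86, SE 0.12) and *Bves* (-0.86, SE 0.27) at lower coordinates and *Hace1* (-0.38, SE 0.09) and *AC135669.2* (-0.02, SE 0.37), which lies within the span of *Hace1*, at higher coordinates. Of these 4 genes *Prep* alone passed the test. The neighbours of *Utf1*, which lies 5.38 Mb from the last annotated base of chromosome 7, had a median of 0.60, and 17 of 40 rose while 2 fell, so that *Utf1* stood below its neighbours with a difference of -0.23. Chromosome 3, which carries *Sox2*, had a median of 0.32, and the neighbours of *Sox2* had a median of 0.22. For the other 7 genes the neighbour medians lay between -0.16 (*Pou5f1*) and 0.23 (*Trim71*). *Dppa2* and *Dppa4* share most neighbours, with medians of -0.07 and -0.04. The next gene on the far side of *Dppa2*, *Morc1*, rose with 0.90 (SE 0.08). The part of regional change, or of DNA copy number, in these values was not tested.

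The core factors act on known target genes and together with known protein partners. Of 7 listed genes with known OCT4-SOX2 enhancers, a list that leaves out the 10 genes themselves, 5 rose and 1 fell, with a median log2 fold change of 1.00. *Nanog* had 3795 and 2858 expected counts in PD100 and 16726 and 13965 in PD800 (log2 fold change 2.32, SE 0.09). *Spp1* (1.92), *Fgf4* (1.66), *Fbxo15* (1.00) and *Tdgf1* (0.56) also rose, the last of these not on the TPM scale or without either PD800 library. *Lefty1*, a secreted inhibitor of NODAL, fell from 1747 and 1610 expected counts to 93 and 75.6 (-4.20, SE 0.11). Of 15 protein partners of the core factors, *Mta1* (0.56) rose and *Gatad2a* (-0.73), *Hdac2* (-0.70) and *Mta3* (-0.66) fell, while 11 did not pass. Over all tested genes, 13.1% rose and 15.4% fell at that threshold. The calls of the partners were lost, to 0 and 0 of 15, without either PD800 library, while DESeq2 gave 2 higher and 5 lower. Of 15 tested genes that share a protein family or, as *Dppa3* and *Dppa5a*, only a name series with the 10 genes, *Sall3* (3.77), *Sox21* (2.36) and *Sox1* (1.74) rose, *Pou3f1* (-2.82) and *Dppa3* (-2.17) fell, and 10 did not pass. Over the alternatives, 2 to 5 of these 15 were higher and 2 to 3 lower.

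Marker lists of stem cells and of other cell types were read in the same libraries, where 13.1% of all tested genes rose and 15.4% fell at an adjusted p under 0.01. Of 10 embryonic stem cell markers, 5 of which are also among the OCT4-SOX2 targets, 8 rose, with a median of 1.29, and the least abundant by expected count, *Tcl1*, had 577, 470, 2233 and 2035. *Esrrb* (2.06), *Tcl1* (2.14) and *Gdf3* (1.29) were among those that rose. Of 10 primitive endoderm markers, 8 had at least 10 counts in every library, and in a fit with such genes alone all 8 fell, with a median of -3.13. The other 2, *Sox17* and *Foxa2*, passed the count filter through the PD100 libraries alone. The summed level of the 10 was 2366 and 2613 CPM in PD100 and 239 and 250 CPM in PD800. *Sparc* was the most abundant of them by TPM, and the genes *Sox17* (711 and 581 against 9 and 9 expected counts), *Pdgfra* (1241 and 1104 against 40 and 31), *Gata4* (1451 and 842 against 146 and 136) and *Foxa2* (230 and 147 against 1 and 1) followed the same direction. Of 6 formative markers, *Pou3f1*, *Fgf5* (-1.86), *Dnmt3b* (-1.76) and *Otx2* (-1.35) fell, and *Lef1* (-0.99) and *Dnmt3a* (-0.17) did not pass. *Fgf5* had 8 and 13 expected counts in PD800, and with at least 10 counts in every library 3 formative markers were lower. Of 8 tested fibroblast markers, *Col1a1* (-3.07), *Col3a1* (-2.52), *Twist2* (-2.40), *Col1a2* (-2.33) and *Thy1* (-1.75) fell. *Twist2*, at 6 and 4.93 expected counts in PD800, passed the filter through PD100 alone. The list summed to 50.5 and 72.4 CPM in PD100 and 14.8 and 15.8 CPM in PD800. *Thy1* had the highest TPM of these in 3 libraries and *Col1a2* in PD100 replicate 2, while *Lum* had at most 1 expected count in any library. Of 7 tested trophoblast markers, *Eomes* (1.98) rose and *Hand1* (-2.92), *Cdx2* (-1.44) and *Ascl2* (-1.39) fell. Of 4 tested neural progenitor markers, *Sox1* and *Pax6* (1.53) rose and *Nes* (-1.88) fell, and *Zbtb16* (0.44) did not pass. Of 5 tested primitive streak markers, *Eomes* rose and *T* (-0.996) and *Mixl1* (-0.87) did not pass. *Gsc*, with 1 and 6 expected counts in PD100 and 39 and 41 in PD800, and *Foxa2* entered the test through the group where they are high, so their calls are descriptions. With at least 10 counts in every library, 1 streak marker was higher and 0 were lower. Over the alternatives, the genes called lower numbered 3 to 7 of the fibroblast, 3 to 5 of the formative, 2 to 4 of the trophoblast and 0 to 1 of the streak markers, and those called higher numbered 1 to 2 of the trophoblast, the neural progenitor and the streak markers. The part of these other cell types in the values of the 10 genes was not tested.

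Promoter windows of RefSeq (GRCm38), from 250 bases before to 50 bases after a gene's start, were matched for 7 of the 10 genes, with 2 windows for *Pou5f1*. They were searched on both strands for the E-box CACGTG, the octamer ATGCAAAT bound by OCT4 and the letters CTTTGT of SOX factors, none of which contains another. Of all 32851 windows, 7.15%, 1.74% and 18.7% held them. Among the windows of the 10 genes, the E-box was in that of *Lin28b* alone, CTTTGT in that of *Sox2* alone and the octamer in 0. The windows of both genes that passed the test are shown, with the E-box of *Lin28b* in capitals and no motif in that of *Utf1*.
Lin28b (chr10:45470152-45470451, minus strand): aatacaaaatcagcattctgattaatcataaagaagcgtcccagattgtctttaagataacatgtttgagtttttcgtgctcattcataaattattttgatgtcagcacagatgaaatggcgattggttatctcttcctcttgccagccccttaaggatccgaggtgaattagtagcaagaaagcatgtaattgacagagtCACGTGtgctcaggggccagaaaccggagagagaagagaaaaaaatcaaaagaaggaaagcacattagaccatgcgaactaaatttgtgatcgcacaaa
Utf1 (chr7:139943606-139943905, plus strand): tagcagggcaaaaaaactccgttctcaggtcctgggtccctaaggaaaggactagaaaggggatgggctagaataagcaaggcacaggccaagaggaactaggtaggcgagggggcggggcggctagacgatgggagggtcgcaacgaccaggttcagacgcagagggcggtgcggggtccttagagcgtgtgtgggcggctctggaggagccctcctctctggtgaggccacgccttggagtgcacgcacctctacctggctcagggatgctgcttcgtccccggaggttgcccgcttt
The *Lin28b* window has 39.0% G and C and 8 CG pairs and that of *Utf1* 62.0% and 17, where the medians over all windows were 52.7% and 7. The *Lin28b* window ends at base 45470451, within the span of the gene in GENCODE, which reaches upstream to base 45486395. Which start these cells use was not tested. No match says only that the letters are not in the window.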

How the data were processed

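Alignment to mm10 (GRCm38) was done by the authors with STAR 2.5.3a, and for each library they deposited expected counts from RSEM 1.3.0, which are not scaled for depth, together with TPM values and estimated transcript lengths. Groups follow the population doublings in the sample titles, although the treatment protocol in the labels calls the same numbers passages. Expected counts were rounded, filtered by filterByExpr (minimum count 10), TMM-normalised and tested by edgeR 4.0.16 (R 4.3.3), with its quasi-likelihood test and Benjamini-Hochberg adjustment, and the procedure was tested on simulated data. Calls used an adjusted p of 0.01 and, where stated, a fold change of 2. Of the 53379 genes, 53274 matched GENCODE M21, which gave coordinates and UTRs. Near-identical transcripts had at least 90% identity over 200 bases (blastn 2.17.0). DESeq2 1.42.0 and limma 3.58.1 served as alternatives.

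The 10 genes and the gene lists were chosen with earlier results of these data known. Named genes were all 10, *Terc* and, of each list, all genes where 6 or fewer were tested, otherwise up to 3 with the highest and 3 with the lowest log2 fold changes among those past the adjusted p. Neighbouring and overlapping genes, pseudogenes, motifs, *Zcchc11*, *Zcchc6* and *Lum* were chosen after their values were seen. Floors cover counting error only. Strand and copy number were not analysed here. A further gene of the let-7 target list is not reported here and is in none of the counts of that list.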

Additional observations from a re-analysis of the deposited data

How the results depend on the processing

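Alternatives were DESeq2, DESeq2's size factors or upper-quartile factors in edgeR, nuclear protein-coding genes alone, no filter on low counts, at least 10 counts in every library, limma on log2(TPM + 1) and log2(TPM + 0.1), a replicate block, an adjusted p under 0.05, and each library left out in turn, where a lone library is assumed to vary as the other group does. The count of 1 gene of the 10 called lower over 2-fold was 1 in all of them. The 10 genes called higher over 2-fold numbered 0, or 0 to 1 with a library left out. At an adjusted p alone, the higher genes of the 10 numbered 4 in DESeq2, 0 with its size factors, 2 with upper-quartile factors, 3 with nuclear protein-coding genes, 4 without a filter, 0 and 0 in limma, 4 at an adjusted p under 0.05 and 0 to 4 with a library left out. The lower genes numbered 2 in DESeq2, without a filter, in both limma fits and at an adjusted p under 0.05, and 1 to 2 with a library left out. The median of the 10 genes was -0.22 and -0.23 in limma and -0.043 to 0.099 with a library left out, and the median of all tested genes was -0.12 and -0.21 in limma.

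Over all genes, those called higher over 2-fold numbered 297 and 533 in limma and 924 to 1526 with a library left out, and those called lower 920 in limma on log2(TPM + 1) and 1316 to 1872 with a library left out. At an adjusted p alone, 3991 were higher without a filter, 712 and 706 in limma, 4224 at an adjusted p under 0.05 and 1257 to 4079 with a library left out, while 4515 were lower at an adjusted p under 0.05 and 1567 to 4223 with a library left out. Fewer calls came without either PD800 library and more without either PD100 library.

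Under the replicate block, 4 of the 10 genes were higher and 2 lower at an adjusted p alone, and 3854 of all genes were higher. Same-numbered libraries had deviations that correlated at 0.265 across genes, with only 2 pairs, so they share a number and not a known batch.

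The sign turned for *Sall4* and *Dppa4* with nuclear protein-coding genes (0.0033 and 0.00041). It also turned for *Sall4* without PD100 replicate 1 or PD800 replicate 2 (-0.077 to 0.017 over the libraries left out), for *Dppa4* without PD100 replicate 2 or PD800 replicate 1 (-0.12 to 0.052) and for *L1td1* without PD100 replicate 2 or PD800 replicate 1 (-0.21 to 0.15), and none of these values passed the test. The cause was not tested. List counts under these alternatives, chosen after seeing the data, ranged from 5 to 9 lower of the let-7 targets, 8 to 10 lower of the primitive endoderm markers, 6 to 10 higher of the stem cell markers and 4 to 6 higher of the OCT4-SOX2 targets. A count of 0 allows up to 3 counts, or 0.0743 to 0.0934 CPM.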
